A study of Mus musculus with 24 samples.

Results

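The 34 genes described here encode the enzymes of cholesterol and fatty acid synthesis and the proteins that switch them on, among 20616 genes with a usable probe on the array. They were chosen by name from pathway knowledge: 9 genes of the mevalonate and squalene steps, 9 from lanosterol to cholesterol, 6 of sterol transport and Srebp control, and 10 of fatty acid synthesis and desaturation. The first 18 are called the sterol enzymes below. Expression was measured in mouse cells with 24 single-colour Agilent arrays, 2 for each of 12 groups. The study derived new epiblast stem cell (EpiSC) lines and set them beside other pluripotent lines and embryonic tissue.

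EpiSCs are pluripotent lines from the epiblast of the implanted embryo. Lines 129Ba1, 129Ba2 and BNa17 were established with a Wnt inhibitor, and Wt1 and 129C1 by the original protocol. A further group is 129C1 treated with IWP2, which blocks the secretion of Wnt proteins. Mouse embryonic stem cells (mESCs), from the blastocyst, came as lines J1 and R1 in conventional medium, with a further group of J1 in 2i, a pair of inhibitors of Mek and Gsk3. All lines were kept on feeder layers and separated from feeders before RNA was prepared. Tissue dissected by hand covered 3 stages: E5.5 epiblast, E6.5 epiblast and E7.5 embryonic ectoderm. Per the labels EpiSC medium was conventional or held the Wnt inhibitor. The labels give no strain, genotype or number of embryos, and do not say whether 2 arrays of a group share a culture or a dissection, so the spread between them may be technical. In bulk RNA, fewer cells of a type and less RNA per cell cannot be told apart.

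Cholesterol is built from acetyl-CoA through mevalonate, squalene and lanosterol. Its genes are driven by the transcription factor Srebp2 (gene Srebf2), while Srebp1 (Srebf1) acts more on fatty acid synthesis. When sterols are plentiful, Insig proteins hold Scap, the escort of both factors, in the endoplasmic reticulum; when sterols run low, Scap carries them to the Golgi, where they are cut free. Insig1 is itself an Srebp target, which closes a feedback loop. Sterols taken up from serum also enter this loop in cultured cells.

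Promoter sequences are shown for an early sterol enzyme, for the enzyme with the widest gap between EpiSCs and embryo, for the feedback gene and for the enzyme that ran against the rest. Each is 300 bases of RefSeq sequence on GRCm38.p6, 250 before and 50 after the gene start, written 5′ to 3′ on the gene's strand. They are Hmgcs1 (chr13:119690101-119690400, plus strand), Msmo1 (chr8:64733529-64733828, minus strand), Insig1 (chr5:28071162-28071461, plus strand) and Ebp (chrX:8193463-8193762, minus strand). Capitals mark the CCAAT box (CCAAT), the GC box (GGGCGG) and the sterol regulatory element (TCACNCCAC), on either strand.
Hmgcs1: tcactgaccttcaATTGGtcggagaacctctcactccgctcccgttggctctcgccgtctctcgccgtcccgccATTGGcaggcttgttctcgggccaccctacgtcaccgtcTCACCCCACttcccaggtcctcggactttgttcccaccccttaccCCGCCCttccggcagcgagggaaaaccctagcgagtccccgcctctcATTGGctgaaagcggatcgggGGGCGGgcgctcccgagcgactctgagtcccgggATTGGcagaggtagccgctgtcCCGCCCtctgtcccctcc
Msmo1: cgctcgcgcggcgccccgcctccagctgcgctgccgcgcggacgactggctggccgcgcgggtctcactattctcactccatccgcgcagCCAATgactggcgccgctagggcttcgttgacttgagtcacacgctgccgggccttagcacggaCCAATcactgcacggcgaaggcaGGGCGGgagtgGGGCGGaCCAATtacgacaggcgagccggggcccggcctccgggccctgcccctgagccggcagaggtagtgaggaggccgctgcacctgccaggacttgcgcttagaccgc
Insig1: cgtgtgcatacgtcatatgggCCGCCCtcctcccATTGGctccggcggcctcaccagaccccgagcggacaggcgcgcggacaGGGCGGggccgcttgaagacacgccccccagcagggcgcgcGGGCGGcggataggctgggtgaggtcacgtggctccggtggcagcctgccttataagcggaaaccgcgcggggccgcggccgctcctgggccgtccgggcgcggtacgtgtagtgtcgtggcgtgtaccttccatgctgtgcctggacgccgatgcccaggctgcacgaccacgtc
Ebp: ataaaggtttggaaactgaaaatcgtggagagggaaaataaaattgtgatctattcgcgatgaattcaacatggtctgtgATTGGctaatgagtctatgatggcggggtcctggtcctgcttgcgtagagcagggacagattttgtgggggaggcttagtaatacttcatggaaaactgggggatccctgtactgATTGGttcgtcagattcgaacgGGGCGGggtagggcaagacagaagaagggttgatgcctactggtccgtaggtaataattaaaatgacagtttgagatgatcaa

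Of the 34 genes, 27 had a promoter in the RefSeq table. A CCAAT box, bound by NF-Y, a partner of Srebp at sterol genes, lay in 22 of the 27 and in 14 of 15 sterol enzyme promoters (93.3%), against 43.5% of the 8176 promoters of genes detected on all arrays and 41.1% of all 27025. The GC box, bound by Sp1, lay in 14 of 15 sterol enzyme promoters, against 70.6% of the detected genes and 38.2% of all. The sterol element was found in 1 of 27, Hmgcs1, against 1.37% of the detected genes and 1.44% of all. Matches of different motifs may overlap. A match describes the letters only.

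A log2 level below is the processed signal relative to the 75th percentile of its array, so 0 is that percentile. Of the 34 genes, 32 were well above background on all 24 arrays, Insig1 on 23 and Srebf1 on 22. All 34 entered each fit. The share of probes well above background was 36.7% to 53.2%, and replicate arrays correlated at 0.966 to 0.989. The first BNa17 array was dimmest (75th percentile 69.3, against up to 253), and the BNa17 pair had the lowest replicate correlation. A gene was called at limma's Benjamini-Hochberg adjusted p under 0.05 over all genes and a change of at least 2-fold. Counts at an unadjusted p under 0.05 cover the 34 genes only. The share of all genes at that threshold was not counted, so those counts have no background.

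The cell labels were set against marker lists, summed as linear signal relative to the 75th percentile. Naive markers summed to 0.645 to 2.99 in the EpiSC lines and 266 to 322 in the mESC lines, and all 4 pluripotency markers were detected in each group. Feeder fibroblast markers, 7 of 7 detected, summed to 63.1 to 331 in EpiSC lines and 57.5 to 95.1 in mESC lines, against 5.93 to 14.5 in embryos. Visceral endoderm markers summed to 6.04 on one E5.5 array and 67.3 on the other, to 14.0 to 22.0 at E6.5 and 1.31 to 1.85 at E7.5, where Afp, Cubn, Apoa4 and Apom were on no array. The 24 arrays lay on 6 slides scanned on 4 days. EpiSC lines lay on slides apart from mESCs and embryos, as did the treated groups from their untreated partners, so slide and group cannot be told apart in those comparisons. E5.5 and E6.5 shared a slide.

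Sterol enzymes were highest in EpiSCs and lowest in embryos. The highest of the 12 group means was an EpiSC group for 17 of the 18, and the lowest was an embryonic group for 15. IWP2-treated 129C1 was highest for 13 and E7.5 ectoderm lowest for 12. The median deviation of the 18 enzymes from their own mean over all groups was 0.106 to 0.724 on the 10 arrays of EpiSC lines and 0.764 and 1.02 in IWP2-treated 129C1. It was -0.420 to -0.155 in the mESC lines and -0.938 to -0.0931 in embryos. For 11 of the 18, each EpiSC line mean exceeded all 3 embryonic means. These counts were not taken over all genes, so how unusual they are is not known. The 12 groups include 5 EpiSC lines and IWP2-treated 129C1, and EpiSCs and embryos lay on different slides.

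**Figure D1:**
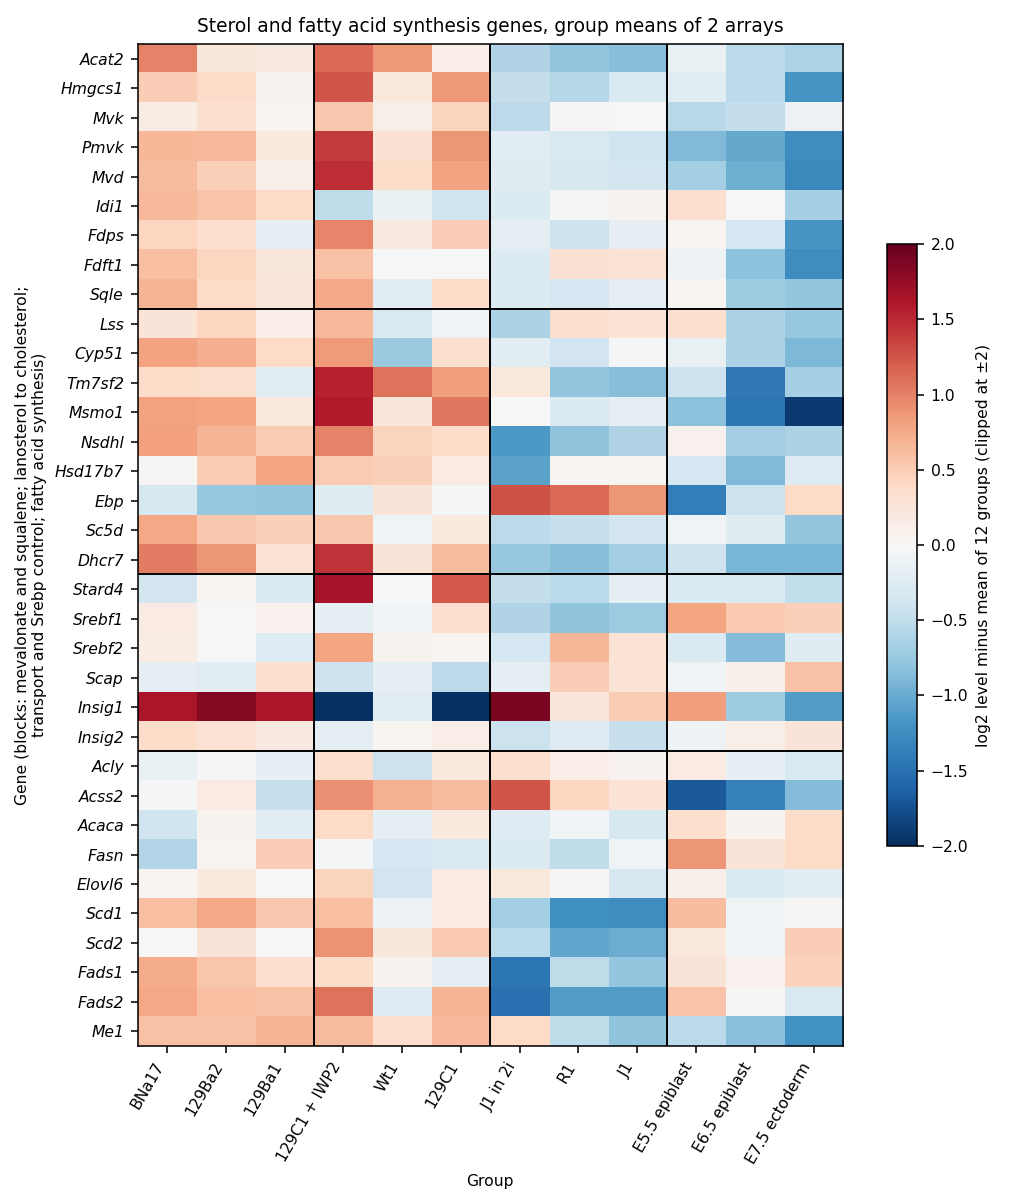
Mean log2 level of each of the 34 genes in the 12 groups (columns), minus the gene's mean over the groups, with colour clipped at ±2 and red for high; each cell is a mean of 2 arrays. The upper 2 blocks, the sterol enzymes, are mostly red in the EpiSC columns and blue in the embryonic ones, while Ebp is red in mESCs and at E7.5.

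Across the 12 group means, the median pairwise correlation among sterol enzymes was 0.719, against 0.336 among fatty acid genes and 0.355 between both lists. These groups share slides and scaling, so the values only describe the arrays. Dhcr7 and Sqle had the highest median correlation with the other sterol enzymes, 0.859 and 0.848. Ebp had the lowest, at -0.341, and Idi1 stood at 0.213. Among the other genes, Me1 (0.748) and Stard4 (0.586) resembled the sterol enzymes most, while Scap ran against them (-0.614).

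EpiSC lines were set against each embryonic stage, on different slides and with higher feeder marker sums in the lines. Against E7.5 ectoderm, 14 of the 34 genes were called higher and 0 lower in the EpiSC lines, where 11.4% of all 14754 genes tested were called higher and 6.15% lower. Against E6.5 epiblast, 11 were higher and 0 lower (12.9% and 9.06% of all genes), and against E5.5, 7 were higher and 1 lower (14.7% and 9.39%). Sterol enzymes made up 12 of the 14, 9 of the 11 and 5 of the 7. The median difference of the 18 enzymes was 1.18 against E7.5, 1.01 against E6.5 and 0.62 against E5.5, where the median of all genes was 0.00, -0.10 and -0.04. By adjusted p alone, 18 were higher and 1 lower against E7.5 (15.8% and 13.0% of all genes), 16 and 0 against E6.5 (17.0% and 19.9%), and 10 and 2 against E5.5 (19.8% and 19.1%), and at an unadjusted p under 0.05 limma had 4 lower against E7.5 and 1 against E6.5.

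**Figure D2:**
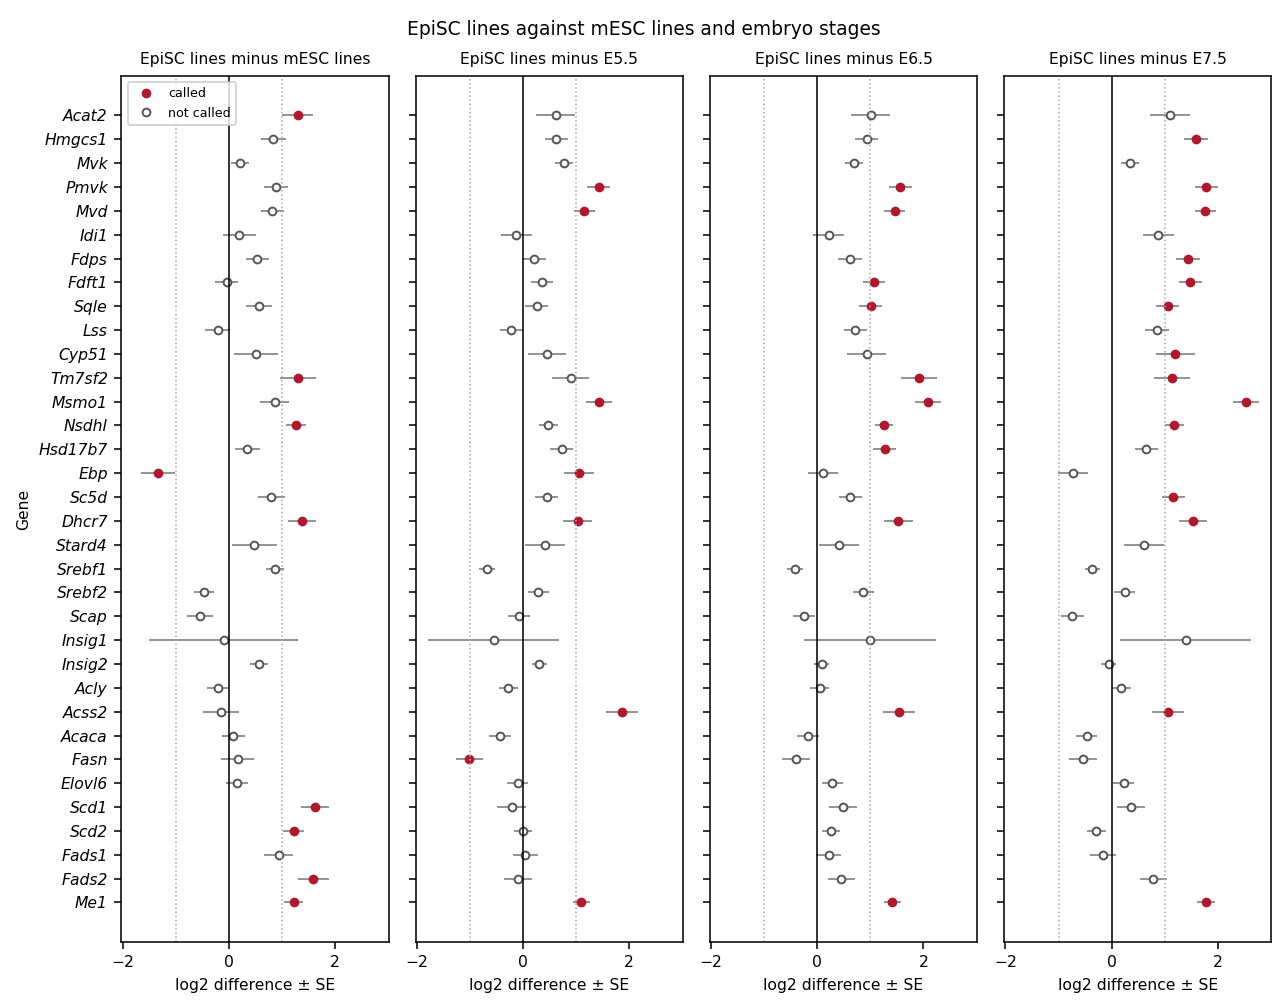
Log2 difference ± SE of each gene between the 5 EpiSC lines and, from left to right, the 2 mESC lines and the E5.5, E6.5 and E7.5 tissues; filled points passed adjusted p and 2-fold, dotted lines mark 2-fold. Filled points lie mostly to the right of 0 and are most numerous against E7.5, with Ebp against mESCs and Fasn against E5.5 on the left.

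Msmo1, the C4-methyl sterol oxidase, had the largest difference of the 34 genes against E6.5 and E7.5, and of the sterol enzymes against E5.5. Its log2 level was 5.44 in 129Ba1, 6.02 in 129Ba2, 6.04 in BNa17, 5.47 in Wt1 and 6.29 in 129C1. The embryonic arrays read 4.40 and 4.44 at E5.5, 3.88 and 3.65 at E6.5, and 3.25 and 3.38 at E7.5. All lines exceeded all tissues, and the difference was 1.43 ± 0.24 (SE) against E5.5 (limma adjusted p = 0.00192), 2.09 ± 0.24 against E6.5 (adjusted p = 0.00036) and 2.54 ± 0.24 against E7.5 (adjusted p = 0.00017).

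In the mevalonate steps, Pmvk and Mvd, which phosphorylate and decarboxylate mevalonate intermediates, were called against each stage. Pmvk stood at 5.75 in 129Ba1, 6.20 in 129Ba2, 6.21 in BNa17, 5.85 in Wt1 and 6.43 in 129C1, against 4.83 and 4.50 on the E5.5 arrays, 4.57 and 4.48 at E6.5 and 4.11 and 4.50 at E7.5. Its groups did not overlap, and it differed by 1.42 ± 0.22 from E5.5 (limma adjusted p = 0.00111) and by 1.78 ± 0.22 from E7.5 (adjusted p = 0.000568). Mvd read 3.37 in 129Ba1, 3.73 in 129Ba2, 3.87 in BNa17, 3.61 in Wt1 and 4.05 in 129C1, against 2.58 and 2.55 at E5.5, 2.27 and 2.26 at E6.5, and 1.76 and 2.15 at E7.5. It was 1.16 ± 0.20 above E5.5 (limma adjusted p = 0.00205) and 1.77 ± 0.20 above E7.5 (adjusted p = 0.000385).

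Hmgcs1, which makes HMG-CoA, the precursor of mevalonate, passed 2-fold against E7.5 and not against E5.5 or E6.5. Its lines read 6.13 in 129Ba1, 6.46 in 129Ba2, 6.55 in BNa17, 6.28 in Wt1 and 6.93 in 129C1, and the tissues 5.74 and 5.95 at E5.5, 5.57 and 5.51 at E6.5, and 4.71 and 5.06 at E7.5. All lines lay above all tissues, by 0.63 ± 0.22 at E5.5 (limma adjusted p = 0.0468), 0.93 ± 0.22 at E6.5 (adjusted p = 0.0101) and 1.59 ± 0.22 at E7.5 (adjusted p = 0.00103). Whether these differences differ from each other was not tested, and the 3 comparisons share the EpiSC lines.

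Of the later mevalonate genes, Fdps and Fdft1, which join isoprene units up to squalene, were 1.43 ± 0.23 and 1.49 ± 0.21 above E7.5. Sqle, the squalene epoxidase and a rate-controlling step, read 5.85 in 129Ba1, 6.01 in 129Ba2, 6.29 in BNa17, 5.39 in Wt1 and 5.98 in 129C1. The tissues read 5.63 and 5.67 at E5.5, 4.95 and 4.85 at E6.5 and 4.79 and 4.89 at E7.5. The E5.5 arrays lay within the range of the lines, and the difference was 0.25 ± 0.22 there (limma adjusted p = 0.378), 1.01 ± 0.22 at E6.5 (adjusted p = 0.00678) and 1.06 ± 0.22 at E7.5 (adjusted p = 0.00667). Against E7.5, Sqle lost its call without the first E7.5 array (adjusted p = 0.0652) or without BNa17 (difference 0.97). Against E6.5 it fell under 2-fold without BNa17 (0.91), 129Ba2 (0.98) or 129C1 (0.99), and its adjusted p was 0.052 without the first and 0.0707 without the second E6.5 array.

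Idi1, the isopentenyl isomerase, was not called in these comparisons, with differences of -0.13 ± 0.29 from E5.5, 0.21 ± 0.29 from E6.5 and 0.88 ± 0.29 from E7.5 (limma adjusted p = 0.755, 0.594 and 0.0474). It read 5.13 in 129Ba1, 5.30 in 129Ba2, 5.38 in BNa17, 4.60 in Wt1 and 4.34 in 129C1, against 5.11 and 5.04 at E5.5, 4.83 and 4.65 at E6.5, and 3.85 and 4.29 at E7.5. The means of the original-protocol lines were lowest among the lines and fell within the range of the tissues.

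In the lanosterol branch, Dhcr7, which makes cholesterol in the last step, differed by 1.03 ± 0.27 from E5.5, 1.53 ± 0.27 from E6.5 and 1.54 ± 0.27 from E7.5 (limma adjusted p = 0.0157, 0.0028 and 0.00354). Its lines read 1.77 in 129Ba1, 2.35 in 129Ba2, 2.50 in BNa17, 1.73 in Wt1 and 2.11 in 129C1. The tissues read 0.69 and 1.44 at E5.5, 0.44 and 0.69 at E6.5 and 0.46 and 0.65 at E7.5. The E5.5 arrays differed from each other, and the call against E5.5 was lost without the first of them (adjusted p = 0.177). It also fell just under 2-fold without BNa17 (0.93) or 129Ba2 (0.96). Tm7sf2, a sterol reductase, was 1.92 ± 0.34 above E6.5 and 1.14 ± 0.34 above E7.5. The E7.5 call was lost without either E7.5 array (adjusted p = 0.23 and 0.0889), without 129Ba2 (0.0509) or 129C1 (0.0551), without the second 129Ba1 array (0.0541), and without Wt1 (difference 0.99).

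Nsdhl and Hsd17b7, which remove the C4 methyl groups together with Msmo1, were 1.26 ± 0.17 and 1.27 ± 0.22 above E6.5. Sc5d, the sterol desaturase, was 1.17 ± 0.22 above E7.5, a call lost without the first E7.5 array (adjusted p = 0.0529). Cyp51, the lanosterol demethylase, was 1.21 ± 0.37 above E7.5, but Wt1 read 0.45 and 0.38, overlapping the E7.5 readings of 0.07 and 0.44. Its call was lost without either E7.5 array (adjusted p = 0.217 and 0.103) and without 129Ba1, 129Ba2, BNa17 or 129C1 (0.052 to 0.0634). Without the first E7.5 array, 9 genes in all were called higher in the EpiSC lines. Fdft1 against E6.5 had an adjusted p of 0.0533 without the second E6.5 array and a difference of 0.98 without BNa17.

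**Figure D3:**
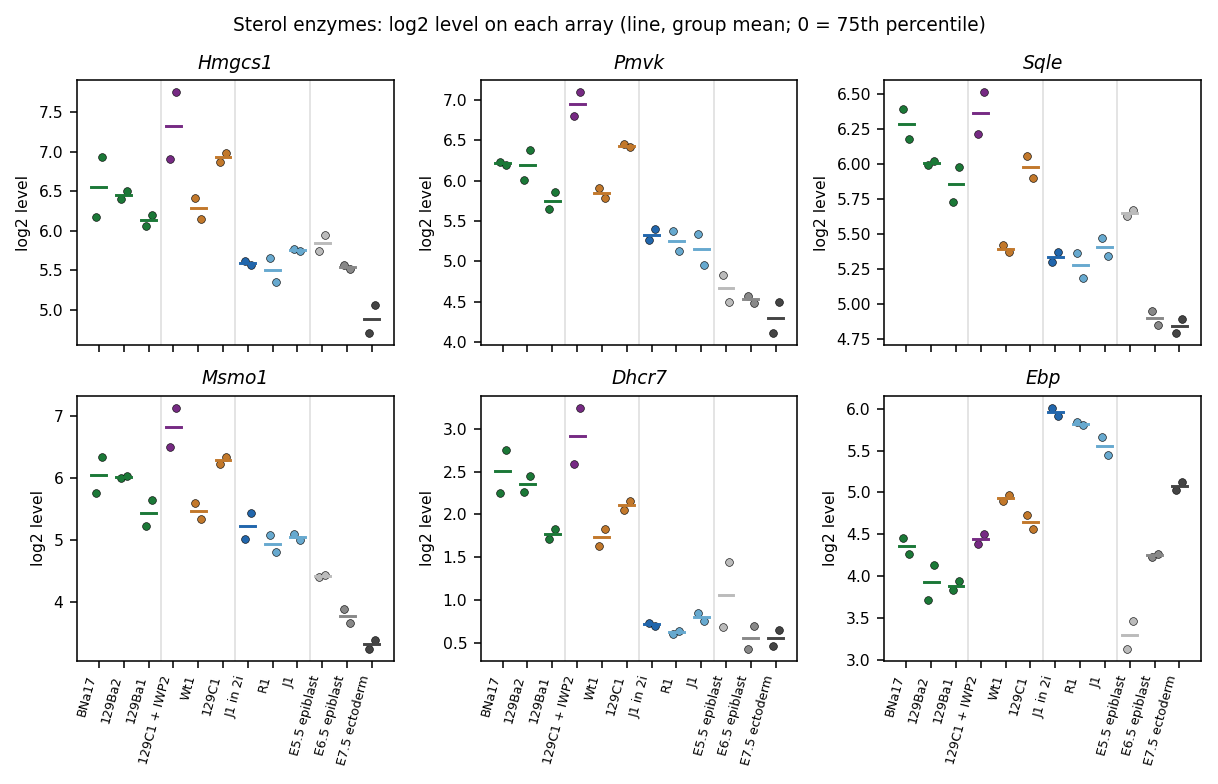
Log2 level of 6 sterol enzymes on each of the 24 arrays (points), with group means as bars; EpiSC groups stand left, mESCs in the middle and embryonic stages right. Hmgcs1, Pmvk, Sqle, Msmo1 and Dhcr7 are low in the E7.5 ectoderm, while Ebp is highest in mESCs and lowest at E5.5.

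Of the 10 fatty acid genes, 2 were called higher in EpiSCs against each stage, Me1 and Acss2. Me1, the malic enzyme that supplies NADPH, read 3.14 in 129Ba1, 3.04 in 129Ba2, 3.04 in BNa17, 2.81 in Wt1 and 3.11 in 129C1, against 1.90 and 1.96 at E5.5, 1.77 and 1.46 at E6.5, and 1.08 and 1.41 at E7.5. All lines lay above all tissues, by 1.10 ± 0.17, 1.41 ± 0.17 and 1.78 ± 0.17 (limma adjusted p = 0.000981, 0.00036 and 0.00014). Acss2, which makes acetyl-CoA from acetate, read -0.15 in 129Ba1, 0.47 in 129Ba2, 0.27 in BNa17, 1.02 in Wt1 and 0.95 in 129C1, against -1.52 and -1.21 at E5.5, -1.16 and -0.91 at E6.5 and -0.66 and -0.45 at E7.5. The difference was 1.87 ± 0.30 at E5.5, 1.55 ± 0.30 at E6.5 and 1.07 ± 0.30 at E7.5 (limma adjusted p = 0.00145, 0.00439 and 0.027). The E7.5 call was lost without either E7.5 array (0.168 and 0.101), the second 129Ba2 array (0.0519), Wt1 (difference 0.94) or 129C1 (0.96). The E6.5 call was lost without the first E6.5 array (adjusted p = 0.054).

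Fasn, the fatty acid synthase, was lower in EpiSCs than at E5.5. It read 0.70 in 129Ba1, 0.27 in 129Ba2, -0.38 in BNa17, -0.13 in Wt1 and -0.07 in 129C1, against 0.98 and 1.20 at E5.5, 0.43 and 0.51 at E6.5 and 0.56 and 0.67 at E7.5. The difference from E5.5 was -1.01 ± 0.26 (limma adjusted p = 0.0144). That call rested just on 2-fold: it was -0.89 without the dim first BNa17 array, -0.90 without BNa17, -0.96 without Wt1 and -0.97 without 129C1. Single arrays of Wt1, 129Ba1 and 129Ba2 also took it to between -0.99 and -0.95, and its adjusted p was 0.0568 and 0.107 without the first and the second E5.5 array. Srebf1 was -0.68 ± 0.15 against E5.5 (limma adjusted p = 0.00677), under 2-fold. Ebp was 1.05 ± 0.28 above E5.5, a call lost without the first (adjusted p = 0.13) or the second (0.054) E5.5 array, without Wt1 (0.90) or 129C1 (0.98). Without the first E5.5 array 5 genes were called against E5.5.

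Feeder markers were far higher in lines than in tissue, and their part in these differences was not tested. Within the lines, 129Ba1 had the highest feeder sum (268 and 331) and a median sterol deviation of 0.106 and 0.348. Line 129C1 had the lowest (63.1 and 75.3), with 0.388 and 0.345. Between them, Wt1 had sums of 158 to 215 with deviations of 0.118 to 0.224. Sums in 129Ba2 were 95.6 to 178, with 0.398 to 0.506, and in BNa17 85.8 to 92.1, with 0.534 to 0.724. The mESC lines carried feeder sums of 57.5 to 95.1. J1 and E7.5 shared a slide: there 6 of the 34 genes (17.6%) were called higher and 4 (11.8%) lower in J1. These shares were near or under the 17.7% and 14.9% of all genes. Of the 18 sterol enzymes, 4 (22.2%) were called higher and 0 lower, and of the 10 fatty acid genes 1 was higher and 3 lower. Sterol enzymes lay above 0 in 16 cases (88.9%, against 54.8% of all genes). Their median difference was 0.65, against 0.09 over all genes. Among the higher genes were Msmo1, by 1.73 ± 0.23 (limma adjusted p = 1.99e-05), and Fdft1, by 1.52 ± 0.20 (limma adjusted p = 1.89e-05).

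Between the stages themselves, most sterol enzymes had lower means at later stages. From E5.5 through E6.5 to E7.5 the group means went down at each step for 13 of 18 sterol enzymes (72.2%), against 22.0% of 10130 genes detected on all arrays, and for 3 of 10 fatty acid genes. On the shared slide, E6.5 against E5.5 had 2 genes called lower and 0 higher (2.16% and 2.70% of all 15090 genes). Of the 34 differences, 28 lay below 0 and 6 (17.6%) above, where 55.2% of all genes lay above 0. The median was -0.36, against 0.05 over all genes. At an unadjusted p under 0.05, 12 were lower and 1 was higher, with no count over all genes at that threshold.

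Insig1 read -0.72 and -0.67 at E6.5, against 0.95 and 0.76 at E5.5, without overlap. It fell by 1.55 ± 0.23 (limma adjusted p = 0.000681). Tm7sf2 read 1.36 and 0.80 at E6.5, against 2.33 and 1.87 at E5.5, and its difference was -1.02 ± 0.23 (limma adjusted p = 0.0125). That call was lost without the first E5.5 array (adjusted p = 0.099) or the second E6.5 array (0.159). By adjusted p alone (5.61% of all genes higher and 3.31% lower), Sqle (-0.75), Nsdhl (-0.78) and Fdft1 (-0.71) were also among 5 lower genes, and Ebp (0.95) was the 1 higher gene. Visceral endoderm markers summed to 14.0 and 22.0 at E6.5, against 6.04 and 67.3 at E5.5, and their part was not tested. Srebf2 read -0.32 and -0.56 at E6.5, against -0.18 and 0.47 at E5.5, a difference of -0.58 ± 0.26 (limma adjusted p = 0.207).

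E7.5 ectoderm against E6.5 epiblast crossed slides. By limma 0 genes were called in either direction (6.30% of all genes were higher and 8.56% lower), and at an unadjusted p under 0.05, 5 were higher and 5 lower. Without the first E6.5 array 1 was called higher, and without the second E7.5 array 1 was called lower. By adjusted p alone (11.4% of all genes higher and 16.1% lower), Fdps (-0.83 ± 0.19), Idi1 (-0.67 ± 0.17) and Sc5d (-0.54 ± 0.13) were lower, while Ebp (0.83 ± 0.16), Tm7sf2 and Scap were higher. Over both steps, E7.5 against E5.5, 6 genes were called lower and 1 higher (10.9% and 10.2% of all genes). Insig1 fell by 1.95 ± 0.23, Fdps by 1.23 ± 0.19, Fdft1 by 1.13 ± 0.20, Msmo1 by 1.10 ± 0.23, Lss by 1.08 ± 0.30 and Idi1 by 1.01 ± 0.17.

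Ebp, the sterol isomerase, was 1.78 ± 0.16 higher at E7.5 than at E5.5 (limma adjusted p = 9.32e-07). It read 3.14 and 3.47 at E5.5, 4.23 and 4.27 at E6.5, and 5.03 and 5.12 at E7.5, an order opposite to that of the 13 enzymes whose means went down. The means of 2 sterol enzymes went up at each step, Ebp and Mvk, with Mvk at 4.49, 4.56 and 4.92. For Mvk the first step depends on the probe: E6.5 minus E5.5 was 0.07 with the chosen probe and -0.14 with a second one. Ebp was the only sterol enzyme called lower in EpiSC than in mESC lines.

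EpiSC against mESC lines compares primed with naive pluripotency. Here 8 of the 34 genes were called higher and 1 lower in EpiSCs, where 12.9% and 12.1% of 14439 genes were called. By adjusted p alone 16 were higher and 1 was lower (17.3% and 19.6% of all genes), and the median difference of the 34 was 0.55, against -0.01 over all genes.

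Scd1, the stearoyl-CoA desaturase, had the largest log2 difference of the 9. It read 1.61 in 129Ba1, 1.83 in 129Ba2, 1.68 in BNa17, 0.97 in Wt1 and 1.24 in 129C1, against -0.17 in J1 and -0.15 in R1. The difference was 1.63 ± 0.26 (limma adjusted p = 0.00353), without overlap. Scd2, its relative, read 5.82 in 129Ba1, 6.07 in 129Ba2, 5.83 in BNa17, 6.03 in Wt1 and 6.33 in 129C1, against 4.82 in J1 and 4.77 in R1 (1.22 ± 0.19, limma adjusted p = 0.00334). The Scd genes are close copies, and cross-hybridisation between their probes was not tested.

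Fads2, the delta-6 desaturase of polyunsaturated fatty acids, read -0.50 in 129Ba1, -0.50 in 129Ba2, -0.32 in BNa17, -1.35 in Wt1 and -0.42 in 129C1, against -2.21 in J1 and -2.22 in R1. It differed by 1.59 ± 0.29 (limma adjusted p = 0.00599), and its adjusted p was 0.0543 without J1 and 0.0536 without R1. Me1 differed by 1.22 ± 0.18 (limma adjusted p = 0.00224), with 1.65 in J1 and 1.95 in R1. Nsdhl was 1.27 ± 0.19 and Acat2, which makes acetoacetyl-CoA, 1.30 ± 0.29 higher. With the mean of all its probes, Nsdhl fell under 2-fold (0.92).

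Dhcr7 read 0.80 in J1 and 0.63 in R1 and was 1.38 ± 0.26 higher in EpiSCs (limma adjusted p = 0.00643). Tm7sf2 was 1.30 ± 0.34 higher. Ebp read 3.89 in 129Ba1, 3.93 in 129Ba2, 4.36 in BNa17, 4.93 in Wt1 and 4.65 in 129C1, against 5.56 in J1 and 5.82 in R1, without overlap. It was 1.34 ± 0.32 lower in EpiSCs, with a log2 difference of -1.34 (limma adjusted p = 0.016). Without J1, 5 of the 34 genes were called, and without R1, 4. Acat2 (adjusted p = 0.0964 and 0.0832), Tm7sf2 (0.134 and 0.119) and Ebp (0.0797 and 0.122) lost their calls without J1 and R1 in that order, and Dhcr7 without R1 (0.0657). Quantile normalization also took Ebp to -1.02 (adjusted p = 0.0624).

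Srebf1 was 0.87 ± 0.17 higher in EpiSC lines (limma adjusted p = 0.0077), under 2-fold, and only 2 of 4 mESC arrays were well above background. Its lines read -1.85 in 129Ba1, -1.92 in 129Ba2, -1.78 in BNa17, -1.99 in Wt1 and -1.59 in 129C1, against -2.66 in J1 and -2.74 in R1. Srebf2 ran from 0.17 in 129Ba1 to 0.58 in BNa17, against 0.71 in J1 and 1.09 in R1 (-0.47 ± 0.19, limma adjusted p = 0.0891). Fasn did not separate the kinds of line (0.17 ± 0.31, limma adjusted p = 0.698). R1 against J1 had 0 genes called by limma (0.530% of all genes in either direction), and 0 at an unadjusted p under 0.05.

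**Figure D4:**
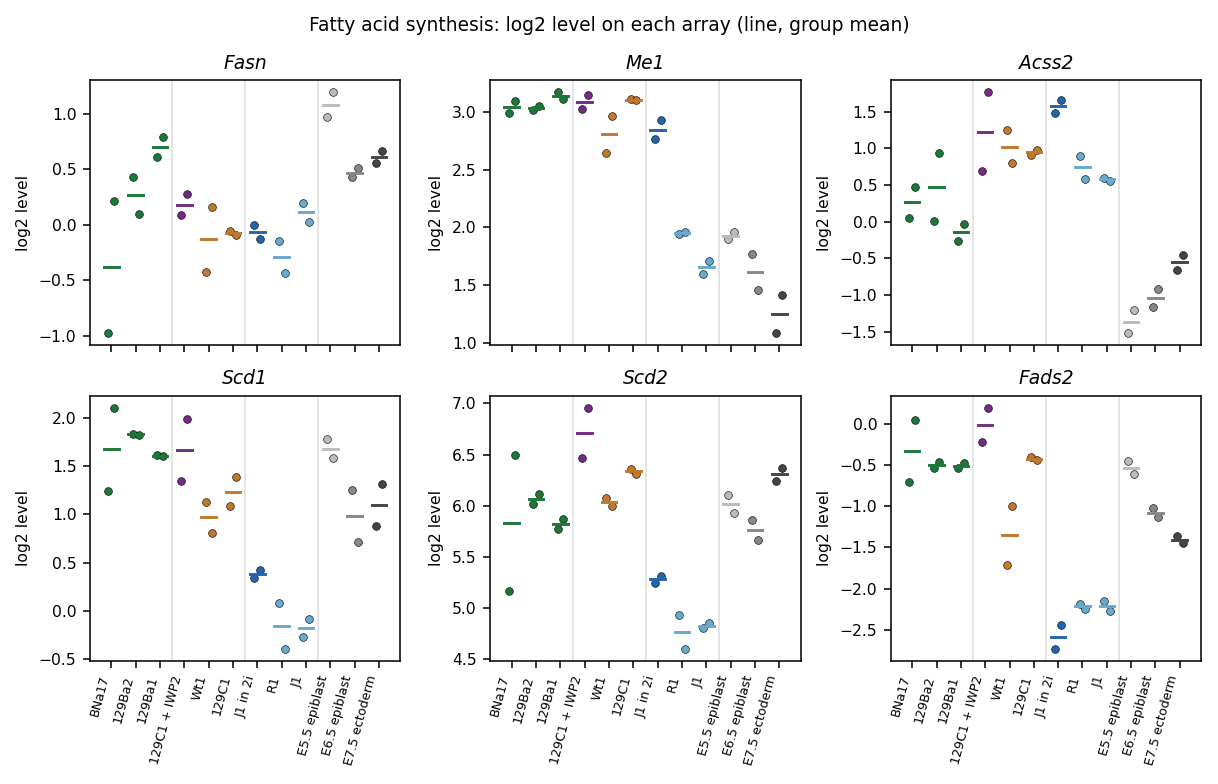
Log2 level of 6 genes of fatty acid synthesis on each array (points), with group means as bars. Scd1, Scd2 and Fads2 have lower means in the 3 mESC groups than in the other groups. Acss2 is low in embryonic tissue, and Me1 is low there and in J1 and R1 in conventional medium.

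J1 in 2i lay on another slide than J1 in conventional medium, so medium and slide cannot be told apart. Of the 34 genes, 3 (8.82%) were called higher and 1 (2.94%) lower in 2i. Among all genes, 6.04% were called higher and 7.00% lower. Insig1 read 1.86 and 1.94 in 2i, against 0.62 and 0.42 in conventional medium, and rose by 1.38 ± 0.23 (limma adjusted p = 0.000734). Me1 read 2.77 and 2.93 in 2i, against 1.60 and 1.71 (1.19 ± 0.15, limma adjusted p = 9.35e-05), and Tm7sf2 2.68 and 2.76, against 1.72 and 1.61 (1.06 ± 0.23, limma adjusted p = 0.00442). Hsd17b7 read -0.77 and -0.99 in 2i, against 0.03 and 0.42 in conventional medium. It fell by 1.10 ± 0.27 (limma adjusted p = 0.00827), a call lost without the second J1 array (adjusted p = 0.0786) or the second 2i array (0.0675). By adjusted p alone (11.3% of all genes higher and 14.9% lower), Lss (-0.91), Mvk (-0.53), Nsdhl (-0.54) and Scap (-0.47) were also lower, and Acss2 (0.99) and Elovl6 (0.53) were higher. The median of the 18 sterol enzymes was -0.12, against -0.05 over all genes. Scd1 read 0.34 and 0.42 in 2i, against -0.27 and -0.08 in conventional medium. Feeder sums were 57.7 to 81.6 in 2i, against 57.5 to 84.4.

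IWP2-treated against untreated 129C1 had small differences, mostly above 0, and the 2 groups lay on different slides. By limma 0 genes were called (1.39% of all genes were higher and 2.49% lower), but 29 of 34 differences lay above 0, with a median of 0.41, against -0.02 over all genes, where 47.4% lay above 0. At an unadjusted p under 0.05, 14 were higher and 1 was lower, with no count over all genes at that threshold. Nsdhl passed adjusted p alone, as did 2.26% of all genes higher and 3.35% lower, with 2.13 and 2.12 after IWP2, against 1.46 and 1.54 in untreated 129C1 (0.63 ± 0.15, limma adjusted p = 0.0214). Without the first IWP2 array 2 genes were called higher.

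Hmgcs1 read 6.90 and 7.76 after IWP2, against 6.87 and 6.99 untreated, and Sqle 6.21 and 6.51, against 6.06 and 5.90. The 2 IWP2 arrays stood apart for Hmgcs1, the first lying near the untreated pair. Srebf2 read 1.04 and 1.42 after IWP2, against 0.55 and 0.40 (0.75 ± 0.26, limma adjusted p = 0.132), and Scd2 6.46 and 6.96, against 6.36 and 6.31. Definitive endoderm markers summed to 0.195 and 0.278 after IWP2, with 0 of 5 detected on both arrays, against 81.8 and 97.4 untreated with 5 of 5, and their part in the differences was not tested. Feeder sums were 65.0 to 97.3 after IWP2, against 63.1 to 75.3.

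Treated 129C1 lay on 1 slide with Wt1. Against Wt1, 8 genes were called higher and 1 lower (5.88% and 8.01% of all genes), but this also compares 2 lines. Stard4 was 1.66 ± 0.28 and Cyp51 1.59 ± 0.17 higher (limma adjusted p = 0.000528 and 8.87e-06), and Insig1 was 2.81 ± 0.23 lower, with a log2 difference of -2.81 (limma adjusted p = 5.96e-07).

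Among the untreated EpiSC lines, 129C1 had the lowest Insig1 and the highest Stard4. For Insig1, Wt1 also lay below the Wnt inhibitor lines. Insig1 read 1.69 and 1.61 in 129Ba1, 1.67 and 2.04 in 129Ba2 and 1.42 and 1.89 in BNa17, against 0.02 and -0.43 in Wt1 and -3.12 and -3.81 in 129C1. After IWP2 129C1 stayed low, at -2.98 and -3.06. In untreated 129C1 only 1 of 2 arrays was well above background. Across the 12 groups Insig1 had the widest range of the 34 genes, 5.36, where the median range was 1.92. It rests on 1 probe.

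As 3 lines against 2, the Wnt inhibitor lines differed from the original-protocol lines by 3.56 ± 0.91 in Insig1 (limma adjusted p = 0.148). By limma 0 genes were called there (0.534% of all genes were higher and 1.04% lower), and at an unadjusted p under 0.05, 5 were higher and 3 lower. With Wt1 or 129C1 left out, 1 gene was called higher. On the shared slide, with 129C1 alone as the other side, 1 gene was called higher and 1 lower (5.85% and 5.34% of all genes). These were Insig1 (5.19 ± 0.19, limma adjusted p = 5.9e-10) and Stard4 (-1.42 ± 0.23, limma adjusted p = 0.000375). This fit took arrays as replicates, so its errors and p-values hold the spread between arrays of a group and not that between lines. They describe these lines only, with 129C1 as 1 line. Definitive endoderm sums were 0.181 to 0.411 in the Wnt inhibitor lines and 36.3 to 97.4 in the original-protocol lines. IWP2-treated 129C1, on another slide, had endoderm sums of 0.195 and 0.278 and Insig1 at -2.98 and -3.06. The part of endoderm cells in the Insig1 differences was not tested.

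Stard4, a carrier of cholesterol between membranes, read 1.79 and 1.78 in 129Ba1, 1.90 and 2.30 in 129Ba2, 1.30 and 2.07 in BNa17, 2.03 and 2.06 in Wt1 and 3.10 and 3.45 in 129C1. IWP2-treated 129C1 read 3.28 and 4.13. The remaining groups lay between 1.43 and 2.00. A second Stard4 probe gave -0.56 for the Wnt inhibitor lines against 129C1 and -0.50 for Wt1 against 129C1, so the size depends on the probe.

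Between the original-protocol lines, Wt1 against 129C1, 1 gene was called higher and 2 lower (5.74% and 4.82% of all genes). Insig1 was 3.26 ± 0.23 higher in Wt1 (limma adjusted p = 2.49e-07). Stard4 was -1.23 ± 0.28 (limma adjusted p = 0.00643), a call lost without the second 129C1 array (adjusted p = 0.0752). Cyp51 read 0.45 and 0.38 in Wt1, against 1.45 and 1.52 in 129C1 (-1.07 ± 0.17, limma adjusted p = 0.000528), a difference that fell under 2-fold with normexp background correction (-0.89). These 2 lines lay on different slides. Feeder sums were 158 and 215 in Wt1, against 63.1 and 75.3 in 129C1.

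Within the Wnt inhibitor lines, which share a slide, limma called 0 genes for 129Ba2 against 129Ba1 (1.19% of all genes in either direction) and 0 for BNa17 against both 129Ba lines (2.98%). At an unadjusted p under 0.05, 5 were higher and 1 lower in the first comparison, and 4 were higher and 3 lower in the second. Sterol enzymes lay above 0 in 17 of 18 cases (94.4%) for 129Ba2 against 129Ba1, where 59.1% of all genes lay above 0. Their median was 0.29, against 0.08 over all genes. Feeder sums were 95.6 to 178 in 129Ba2 and 268 to 331 in 129Ba1, and their part was not tested. Without the second BNa17 array 3 genes were called, 1 higher and 2 lower.

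**Figure D5:**
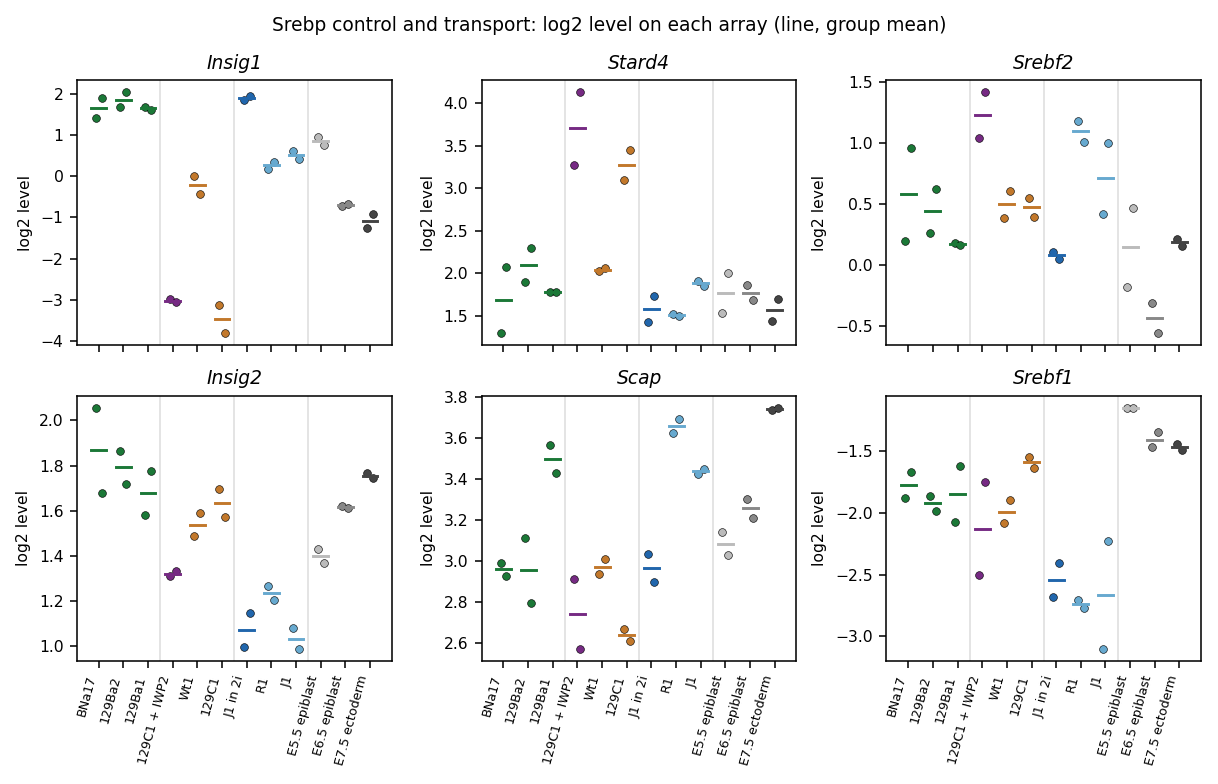
Log2 level of 6 genes of sterol transport and Srebp control on each array (points), with group means as bars and a separate vertical scale per gene. Insig1 is near -3 in 129C1 with and without IWP2 and near 1.65 in the Wnt inhibitor lines, and Stard4 is highest in both 129C1 groups.

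The other control genes moved over narrower ranges. Insig2, the second Insig protein, passed adjusted p alone in EpiSC against mESC lines (0.57 ± 0.17, limma adjusted p = 0.0346). In none of the comparisons of EpiSC lines with tissues was a gene of sterol transport or Srebp control called. Different probes of a gene disagreed for Acly, where a second probe gave 0.86 for EpiSC against mESC lines and the chosen one -0.21, and for Acaca, whose 3 probes gave 0.08, -0.57 and 1.52. No direction is given for these 2 genes.

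Neighbouring pathways were read from lists of 16 other lipid synthesis genes, 9 of sterol export, storage and oxysterol response, and 12 of fatty acid oxidation. In EpiSC against mESC lines, 2 of 16, 3 of 9 and 1 of 12 were called higher and 3, 0 and 2 lower, where 12.9% of all genes were called higher and 12.1% lower. Soat1, which esterifies cholesterol for storage, was 2.72 ± 0.45 higher in EpiSC lines (limma adjusted p = 0.00391). Thrsp, a regulator of lipogenesis, was well above background on 0 of 10 EpiSC arrays and all 4 mESC arrays, and was at least 4.49-fold lower in EpiSCs (limma adjusted p = 0.00214). Acadm, the medium-chain acyl-CoA dehydrogenase, was 1.86 ± 0.17 lower, with a log2 difference of -1.86 (limma adjusted p = 0.00036).

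Abcg1, which exports cholesterol to lipoproteins, was lower in EpiSC lines than at each stage, by log2 differences of -3.29 ± 0.44 at E5.5, -2.24 ± 0.44 at E6.5 and -2.11 ± 0.44 at E7.5 (limma adjusted p = 0.000565, 0.00449 and 0.00737). Of the 12 oxidation genes, 4 were called higher in EpiSCs than at E5.5, 3 than at E6.5 and 3 than at E7.5, and 0 lower. Of all genes, 14.7%, 12.9% and 11.4% were called higher in the same order of stages and 9.39%, 9.06% and 6.15% lower.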

How the data were processed

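Total RNA of mouse stem cell lines and embryonic tissue was hybridised to 24 single-colour Agilent arrays. The software named in the submitters' processing notes is Agilent Feature Extraction 10.5.1.1. Each spot's processed signal is a linear intensity in the deposited raw files. A second table that the authors deposited holds log2 values scaled to each array's 75th percentile and centred on each probe's median. It was used as an alternative. Each of their columns matched its own array (lowest r 0.999991, highest with another array 0.796).

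Processed signals were put on a log2 scale and each array's 75th percentile was taken off. Of 55681 probes, 27235 carried a RefSeq accession that named a gene, 20660 genes in all. Outlier flags were left out, and each gene was represented by its brightest unflagged probe. A gene entered a fit when well above background on both arrays of 1 group. The precision is limited by the number of arrays. Where 0 arrays of a side were well above background, the fold is a bound, against the larger of the dim probe's own signal and the array's lowest well-above-background signal.

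limma 3.58.1 in R 4.3.3 was fitted on all genes, two-sided. Line comparisons used line means, 5 EpiSC lines against 2 mESC lines or 2 arrays of a stage. For tissue, the 5 line means and all 6 embryo arrays were fitted together with 1 shared estimate of the spread. That estimate pools line means with single arrays. The other comparisons used all 24 arrays as 12 groups. In this design, a lone array is assumed to vary like the other groups. Errors are standard errors. The fits were tested on simulated data. Per-array values are given for called genes, at most 6 in a comparison by size of difference, and for 10 genes fixed by name; other lists give counts and up to 3 called members. The 34 genes and the lists were chosen with earlier results of these data known. Replicate numbers were not taken to pair the arrays. The background signal alternative used the median signal, the column at hand. Alternatives also covered quantile scaling, filters, all probes of a gene, a variance trend, slide and replicate blocks, and leaving out arrays and lines. Contrasts within 1 slide and E7.5 against E5.5 were added after the data were seen.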

Additional observations from a re-analysis of the deposited data

Results flagged for a closer look

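Among the 5 EpiSC lines, 2 of the 34 genes had 1 line far from the others, by the gap to the nearest line over the whole range, with a critical value of 0.71. Chance flags about 1 in 20 such groups, so 2 flags among 34 genes are near what chance gives. Stard4 stood at 3.28 in 129C1, against 2.10 in the next line (ratio 0.741). Its second probe gave a smaller difference for Wt1 against 129C1, -0.50 where the chosen probe gave -1.23. Fads2 stood at -1.35 in Wt1, against -0.504 in the next line (ratio 0.826).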

How the results depend on the processing

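Of the called genes, no direction was reversed under any alternative tried. Over the settings that leave out no array, the call held in 391 and was lost in 26; over those that leave out an array or line, it held in 724 and was lost in 62. Dropping the 2-fold minimum gave 1 called gene for IWP2 in place of 0, 17 for EpiSC against mESC lines in place of 9, 10 for 2i in place of 4, 6 for E6.5 against E5.5 in place of 2, 6 for E7.5 against E6.5 in place of 0, and 8 for Wt1 against 129C1 in place of 3. Background correction with normexp on median signals gave 1 gene for the Wnt inhibitor against the original-protocol lines in place of 0, 2 for 2i in place of 4, and 5 for EpiSC lines against E5.5 in place of 8. Slide as a fixed block gave 1 in place of 0 for the Wnt inhibitor lines. Fits of only the arrays compared gave 1 for IWP2 in place of 0, and 1 for E6.5 against E5.5 in place of 2. With 1 array or line left out, counts ranged from 0 to 1 for the Wnt inhibitor lines, 0 to 2 for IWP2, 4 to 10 against mESC lines, 3 to 4 for 2i, 1 to 3 for E6.5 against E5.5, 0 to 1 for E7.5 against E6.5, 5 to 9 against E5.5, 9 to 12 against E6.5, 9 to 15 against E7.5, 2 to 4 for Wt1 against 129C1, 0 to 3 for BNa17, and 0 to 0 for both 129Ba2 against 129Ba1 and R1 against J1. The cause of these changes was not tested.

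Same-numbered arrays correlated in their deviations at -0.0518 to 0.423, with 4 of 9 pairs above 0.1. The labels give no pairing and not every pair passed 0.1, so the arrays were not treated as paired; a shared origin of some was not tested. With the replicate block, counts were 0 for IWP2, 4 for 2i, 2 for E6.5 against E5.5, 0 for E7.5 against E6.5 and 3 for Wt1 against 129C1, and none of the 9 gene calls in these comparisons changed. Slide as a random block (correlation 0.077 against mESC and 0.200 against tissue) could be fitted only for comparisons of line means; for those of single arrays it was not run. That block ended the calls of Dhcr7 against E5.5 (adjusted p = 0.0522), Sqle against E6.5 (0.95, under 2-fold), and Acss2, Cyp51 and Tm7sf2 against E7.5 (0.0605, 0.0918 and 0.0713). Normexp took these calls under 2-fold: Fads2 against mESC lines (0.77), Hsd17b7 (-0.71) and Tm7sf2 (0.89) in 2i, Tm7sf2 in E6.5 against E5.5 (-0.87), Cyp51 in Wt1 against 129C1 (-0.89), and, for EpiSC lines, Dhcr7 (0.85), Ebp (0.96) and Fasn (-0.71) against E5.5, Fdft1 (0.90), Hsd17b7 (0.99) and Sqle (0.80) against E6.5, and Acss2 (0.76), Nsdhl (0.94), Sc5d (0.99) and Tm7sf2 (0.96) against E7.5. The mean of all probes did so for Nsdhl against mESC lines (0.92) and E7.5 (0.89), Acss2 against E7.5 (0.71) and Stard4 in Wt1 against 129C1 (-0.87). Of the 34 genes, Insig1 and Srebf1 were limited by signal over background.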

Other observations

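Cpt1a, the gate of fatty acid entry into mitochondria, fell along the stages. It read -0.385 and -0.0256 at E5.5, -2.05 and -1.93 at E6.5, and -4.34 and -4.77 at E7.5, where 0 of 2 arrays were well above background. The EpiSC group means lay between 1.82 and 2.81, and the first BNa17 array read 1.09. Against E7.5, the EpiSC lines were at least 64.3-fold higher (limma adjusted p = 5.97e-06), and E7.5 was at least 11.6-fold lower than E5.5 (limma adjusted p = 1.75e-07). The mESC lines read 2.73 in J1 and 2.84 in R1, and J1 in 2i 3.44. Acadvl, the very-long-chain dehydrogenase, was 1.74 ± 0.15 above E7.5 in EpiSC lines (limma adjusted p = 0.00011).

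Acsl4, which activates arachidonic acid, was 2.25 ± 0.19 lower in Wt1 than in 129C1, with a log2 difference of -2.25 (limma adjusted p = 1.46e-06). In BNa17 against the 129Ba lines, 3 of 9 export and storage genes were called lower, where 2.98% of all genes were called in either direction. They were Abcg1 (-1.73 ± 0.37), Mylip (-1.46 ± 0.36) and Soat1 (-1.33 ± 0.25). Abcg1 and Mylip were well above background on 1 of 2 BNa17 arrays.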
